A study of Mus musculus with 2 samples.

Results

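The 9 genes described here act on retinoids, the vitamin A compounds: *Rbp4*, *Adh1*, *Adh7*, *Dhrs3*, *Aldh1a1*, *Aldh1a2*, *Aldh1a3*, *Crabp1* and *Crabp2*, out of 32285 genes in the files. They were chosen from measured values, since *Adh1* had the largest ratio between the mice among detected genes in cells with alveolar myofibroblast markers. The other 8 were taken as genes of the same pathway, with earlier results of these data known. The *Adh1* ratio in those cells is therefore a description and supports nothing.

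Lung cells of 2 mice were profiled at postnatal day 14 by droplet single-cell RNA sequencing, with 1 mouse per condition. Both mice were Gli1 creERT/+ : Hhip flox/flox and received injections daily for 3 days from birth, oil in the control and tamoxifen in the *Gli1 HHIPCKO* mouse. Tamoxifen activates a Cre recombinase made in cells that express *Gli1*, a hedgehog-responsive gene, so deletion of *Hhip*, the hedgehog-interacting protein, can occur only in those cells and their progeny. Sorted stromal and epithelial cells, depleted of CD31 and CD45 positive cells, were mixed 3 to 1. The control library held 10999 cells and 43291709 UMIs, and the *Gli1 HHIPCKO* library held 12350 cells and 52338969 UMIs. The median cell had 3531 UMIs in control and 3720 in *Gli1 HHIPCKO*, and 193 cell barcodes occurred in both libraries.

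*Hhip* itself, the targeted gene, was checked first. In the 5 fibroblast classes together the control level was 848 UMIs per 1000000 UMIs (CPM) and the *Gli1 HHIPCKO* level 198 CPM, so *Hhip* fell, with log2 at -2.10 (-2.16 to -2.05). By class log2 was -2.68 in DMF-like, -1.33 in ALMF-like, -1.81 in peribronchial, -1.42 in alveolar and -1.39 in adventitial fibroblast-like cells, a fall past 2-fold in each. The mice also differed in sex. *Xist*, the noncoding RNA of the inactive X chromosome, had 0 UMIs in those control cells and 7665 UMIs in the *Gli1 HHIPCKO* cells. Sex, treatment and library therefore cannot be told apart in any ratio below.

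Retinol travels in blood on RBP4, is stored in cells as esters, and is oxidised first to retinal by alcohol and short-chain dehydrogenases and then to retinoic acid by the ALDH1A enzymes. Retinoic acid binds nuclear receptors (RAR with RXR), CRABP proteins hold it in the cytoplasm, DHRS3 turns retinal back to retinol, and CYP26 enzymes break retinoic acid down. In the postnatal lung, lipid-laden fibroblasts store retinoids, and retinoic acid is known for its part in forming alveolar septa.

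Cells were grouped into 14 classes by marker genes and called "-like", among them alveolar myofibroblast (ALMF)-like and ductal myofibroblast (DMF)-like cells. All levels are summed UMIs of a class and library as CPM. Intervals are exact at 95% (Poisson for levels, binomial for shares and ratios) and cover counting error only. With 1 mouse per condition there is no test, and a gene was called when it had at least 50 UMIs in both libraries together and differed at least 2-fold. Red cell-like cells are given beside other classes for comparison, and whether they make any of these RNAs themselves was not tested. *Adh1* and *Aldh1a1* were lower in AT2-like cells than in red cell-like cells, and how much free RNA each class holds was not tested. The red cell-like median depth was 5056.5 UMIs in control and 5485 in *Gli1 HHIPCKO*.

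The pattern over cell types was clear in both mice: *Adh1* was highest in alveolar and adventitial fibroblast-like cells, *Aldh1a1* in ciliated-like and then alveolar fibroblast-like cells, *Rbp4* and *Adh7* in adventitial, *Crabp1* in alveolar fibroblast-like, *Aldh1a2* in mesothelial-like, and *Dhrs3* in AT2-like and ciliated-like cells. Over the 14 classes taken singly, members were at least 2-fold higher in *Gli1 HHIPCKO* in 10 of 42 measured pairs of member and class (23.8%) and at least 2-fold lower in 1 (2.38%), beside 2.70% and 1.55% of 95413 pairs over all genes. The 10 include *Adh1* in ALMF-like cells, which chose the gene, and *Aldh1a1* in red cell-like cells. *Adh1* or *Aldh1a1* made up all 10 of the higher pairs, and *Rbp4* in mesothelial-like cells was the lower pair.

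**Figure D1:**
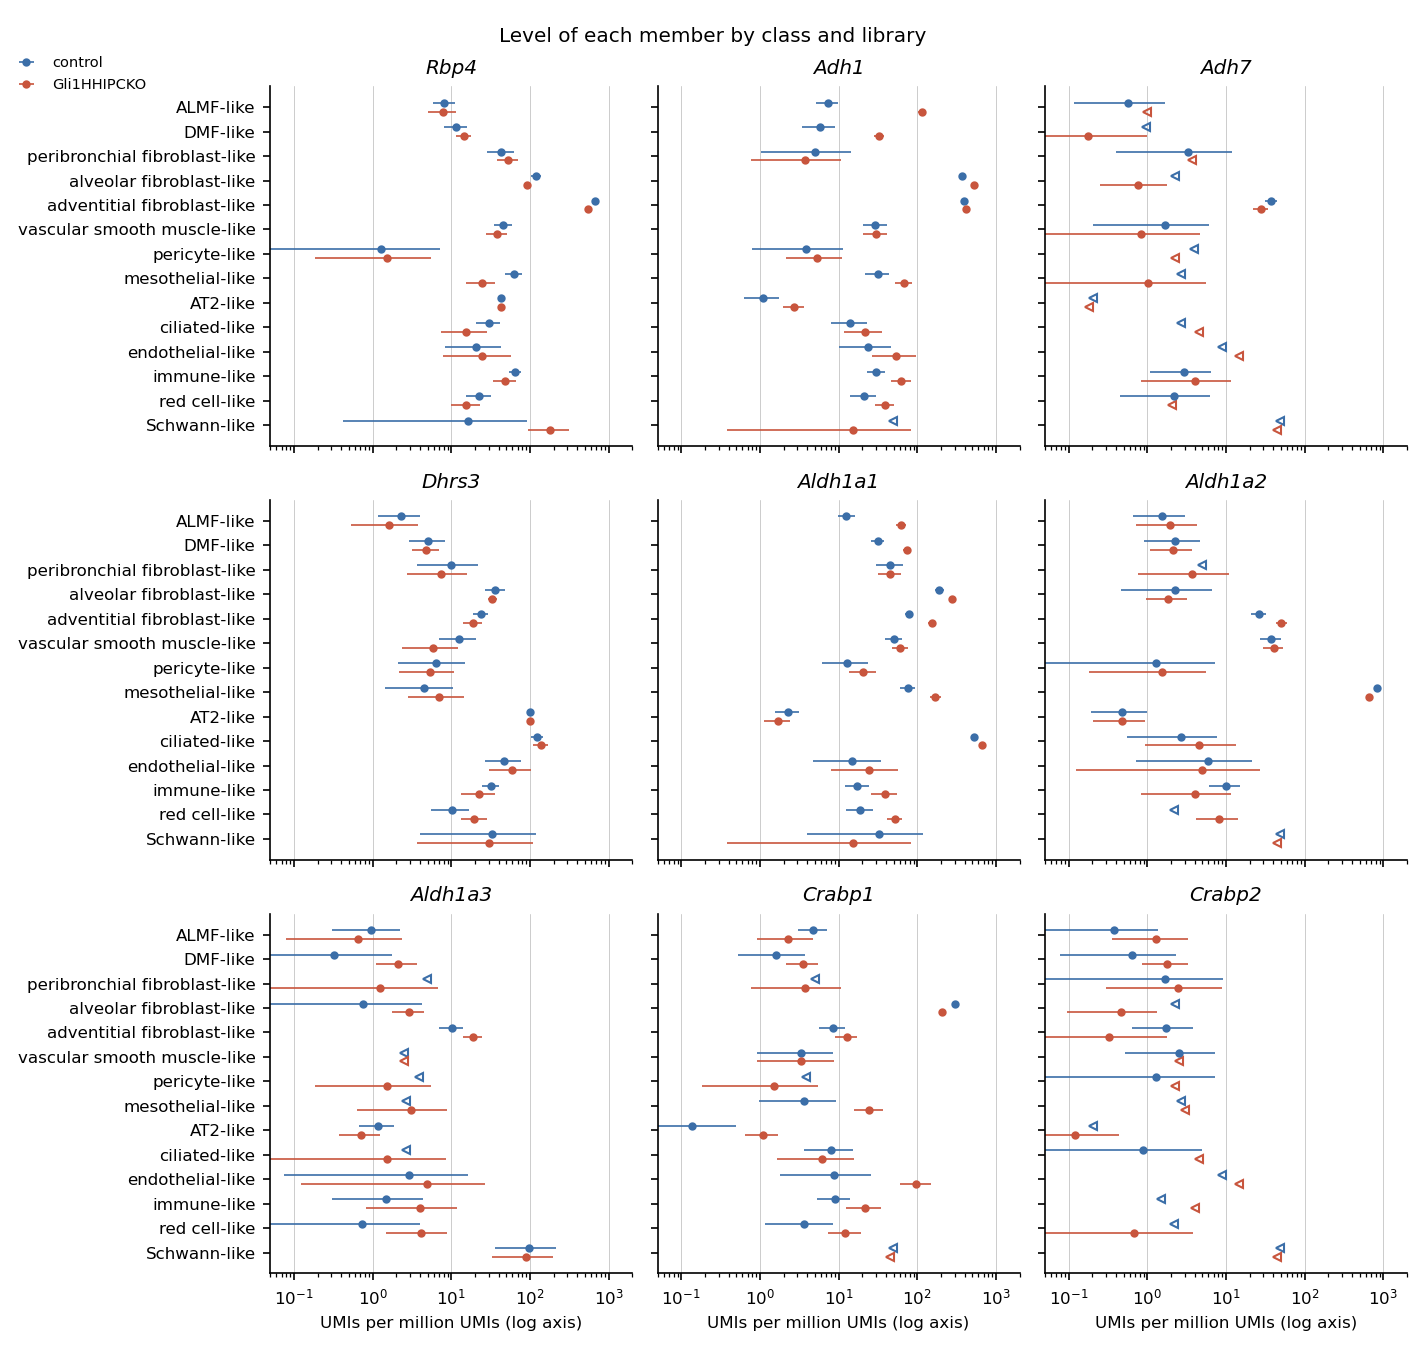
Level of each of the 9 members in CPM (log axis) in each class, control in blue and *Gli1 HHIPCKO* in red, with exact 95% Poisson intervals; an open triangle marks a library with 0 UMIs, drawn at the level of 3 UMIs. *Aldh1a2* peaks in mesothelial-like cells (824 and 665 CPM) and *Crabp1* in alveolar fibroblast-like cells (303 and 205 CPM).

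*Rbp4* (ENSMUSG00000024990; chromosome 19, 38116629 to 38125281) encodes the retinol carrier of plasma. It was highest in adventitial fibroblast-like cells, the fibroblasts around vessels and airways, with 664 CPM (638 to 692) in control and 542 CPM (516 to 568) in *Gli1 HHIPCKO*. Those cells held 55.5% of its control UMIs and 43.5% of its *Gli1 HHIPCKO* UMIs, and no other class overlapped their interval in either library. In control the next class was alveolar fibroblast-like at 120 CPM, clear of the immune-like cells below it at 64.3 CPM. A small cluster carried that place. Of the 159 UMIs, 108 came from the 50 control cells of cluster M16, led by *Cpm*, *C7* and *Scube2*, at 339 CPM (278 to 410). The 226 control cells of the main cluster, M0, led by *Scube2*, *C7* and *Nebl*, were at 44.1 CPM (31.2 to 60.5). M16 had a more mixed and deeper profile. Alveolar fibroblast, adventitial, ALMF and DMF markers summed to 7075, 2598, 2721 and 2036 CPM in its control cells. In those of M0 the sums were 16741, 2902, 486 and 483 CPM. Median depth was 6419 UMIs in M16 and 3660 in M0, over both mice. From immune-like down to the lowest class, pericyte-like at 1.29 CPM, each class overlapped the next in control. In *Gli1 HHIPCKO* 12 UMIs in 24 Schwann-like cells overlapped the alveolar fibroblast-like level of 92.6 CPM. AT2-like cells, the surfactant-making epithelium, were alike in the mice at 42.8 and 43.4 CPM.

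Mesothelial-like cells, the outer lining of the lung, gave the called loss. There *Rbp4* fell from 69 UMIs and 62.0 CPM (48.3 to 78.5) in control to 24 UMIs and 24.3 CPM (15.6 to 36.2), a log2 ratio of -1.35 (-2.09 to -0.66). It was past 2-fold lower in each of the 8 alternative analyses that gave a value. In adventitial fibroblast-like cells the log2 ratio was -0.29 (-0.39 to -0.20), below the call. In alveolar fibroblast-like cells it was -0.38, but ran from -1.24 with each library clustered on its own to 1.11 with the highest doublet scores left out, so neither size nor direction held there.

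*Adh1* (ENSMUSG00000074207; chromosome 3, 138260991 to 138290698) encodes a class I alcohol dehydrogenase that oxidises ethanol and retinol. Its control level was 390 CPM (370 to 412) in adventitial and 366 CPM (335 to 401) in alveolar fibroblast-like cells, which overlap. All other control classes were far lower, from mesothelial-like at 31.5 CPM (21.9 to 43.8) down to AT2-like at 1.09 CPM, each overlapping the next, with 0 UMIs in 24 Schwann-like cells. In *Gli1 HHIPCKO* the order began with alveolar fibroblast-like at 520 CPM (502 to 537), then adventitial at 422 CPM (400 to 446), then ALMF-like at 113 CPM (102 to 126), each clear of the next. Mesothelial-like cells followed at 67.9 CPM, and from there on each class overlapped the next. The third place of ALMF-like cells depends on the clustering and naming, as their level was 35.5 to 57.4 CPM at the other resolutions, with libraries clustered alone and under the first naming rule.

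In alveolar fibroblast-like cells, the lipid-storing fibroblasts of the alveolar wall, *Adh1* had 485 UMIs in control and 3389 in *Gli1 HHIPCKO*, and the log2 ratio was 0.50 (0.37 to 0.64). In adventitial fibroblast-like cells it had 1347 and 1302 UMIs and a log2 ratio of 0.11 (0.00 to 0.22). Neither reached 2-fold, here or in any of 10 alternatives each, which ran from 0.36 to 0.76 and from 0.05 to 0.25. *Adh1* was thus higher in *Gli1 HHIPCKO* in alveolar fibroblast-like cells, by less than 2-fold, and about equal in the adventitial class. In each adventitial cluster the *Gli1 HHIPCKO* value was the higher. M15 had 559 CPM (506 to 618) in control and 831 CPM (744 to 926) in *Gli1 HHIPCKO*, which are apart. M8 had 480 CPM (445 to 516) and 545 CPM (504 to 589), which overlap. M6 had 187 CPM (164 to 212) and 221 CPM (198 to 246), which overlap too. M8 also carried many alveolar fibroblast markers. Adventitial and alveolar fibroblast markers summed to 8342 and 7126 CPM in its control cells, and to 11408 and 6025 CPM in *Gli1 HHIPCKO*. In M6 these sums were 19032 and 787 CPM in control, and 20022 and 1004 CPM in *Gli1 HHIPCKO*. The adventitial level of *Adh1* thus includes cells with markers of both kinds. M6 held 368 control and 473 *Gli1 HHIPCKO* cells, and M15 167 and 100, and the part of this in the class ratio was not tested. Alveolar fibroblast-like cells were not equally many in the mice, with 389 in control and 1748 in *Gli1 HHIPCKO*. Their part of all *Adh1* UMIs was 20% and 53.9%.

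Over all mesenchymal clusters, which needs no naming of fibroblasts, *Adh1* stood at 114 CPM (109 to 119) in control and 230 CPM (224 to 237) in *Gli1 HHIPCKO*. The log2 ratio of 1.01 (0.94 to 1.09) is at the edge of the call, and at a clustering resolution of 0.5 it was 0.99 and no longer passed. Over the 5 fibroblast classes it was 138 and 273 CPM, log2 0.99 (0.91 to 1.07), just short of 2-fold. It ran from 0.49 to 1.66 over 10 alternatives and was past 2-fold in 7 of them. These pooled values include the greater number of alveolar fibroblast-like cells. Both pools also hold the ALMF-like cells whose ratio chose the gene, with 38 and 348 *Adh1* UMIs. Those cells made up 38.2% of the UMIs of the 5 fibroblast classes in control and 16.0% in *Gli1 HHIPCKO*. The pooled ratios are therefore not separate from the choice of *Adh1*, and nothing is read from them.

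In ALMF-like cells, the contractile cells of the septal tips, *Adh1* had 38 UMIs and 7.25 CPM (5.13 to 9.95) in control and 348 UMIs and 113 CPM (102 to 126) in *Gli1 HHIPCKO*. The *Gli1 HHIPCKO* value is the higher, with a log2 ratio of 3.97 (3.48 to 4.49), and this is the value that led to the choice of the gene. Different clusters made up the class in the mice. In control 1120 of its 1572 cells were in cluster M1, led by *Stc1*, *Notum* and *Bmp2*, while in *Gli1 HHIPCKO* 839 of its 977 cells were in cluster M5, led by *Lnx1*, *Ddit4* and *Entpd1*. Most others were in cluster M11, led by the immediate early genes *Fos* and *Junb*, with 438 control and 71 *Gli1 HHIPCKO* cells. *Adh1* was at 124 CPM (111 to 138) in the *Gli1 HHIPCKO* cells of M5 and at 22.3 CPM (0.565 to 124) in its 14 control cells, from 1 UMI. Within M1 it was at 8.62 CPM (5.81 to 12.3) in control and 35.5 CPM (13.0 to 77.2) in 67 *Gli1 HHIPCKO* cells, and within M11 at 4.08 CPM (1.64 to 8.40) and 60.7 CPM (35.3 to 97.2). These are the cells whose ratio chose the gene, M1 in *Gli1 HHIPCKO* rests on 6 UMIs, and nothing is read from the split.

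The size of that ratio depends on how clusters were named. Of 2 naming rules used, the first left M5 and M11 out of the class and gave 8.62 and 35.5 CPM, a log2 ratio of 2.04. The present rule was set after seeing which clusters the first left unnamed, and it raised the ratio by taking them in. Resolutions of 0.5 and 2 gave 2.89 and 3.01, and clustering each library on its own gave 2.49. In all 9 alternatives with a value, 2.04 to 4.24, the ratio was past 2-fold. The alternatives use the UMIs that chose the gene, so they lend it no support.

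In DMF-like cells, the contractile cells of the alveolar ducts, *Adh1* had 18 UMIs and 5.77 CPM (3.42 to 9.11) in control and 186 UMIs and 33.0 CPM (28.4 to 38.1) in *Gli1 HHIPCKO*, log2 2.51 (1.81 to 3.30). Most of those *Gli1 HHIPCKO* UMIs came from 1 cluster. M10, led by the immediate early genes *Junb*, *Socs3* and *Egr1*, held 536 *Gli1 HHIPCKO* cells, 9 control cells and 163 of the 186 UMIs, at 71.9 CPM (61.3 to 83.9). Its 9 control cells had 4 UMIs, 100 CPM (27.3 to 257), which is not lower. The main *Gli1 HHIPCKO* cluster, M4, led by *Ace*, *Lgr6* and *Ak5*, had 1069 cells and 6.92 CPM (4.39 to 10.4), which overlaps the 3.94 CPM (2.04 to 6.88) of the main control cluster, M2, with 1152 cells, led by *Efnb2*, *Enpp2* and *Prss35*. The call ended at resolution 2, with a log2 ratio of 0.59, and with each library clustered on its own, with 0.01. A cluster almost wholly from 1 library may be that library rather than a cell type.

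**Figure D2:**
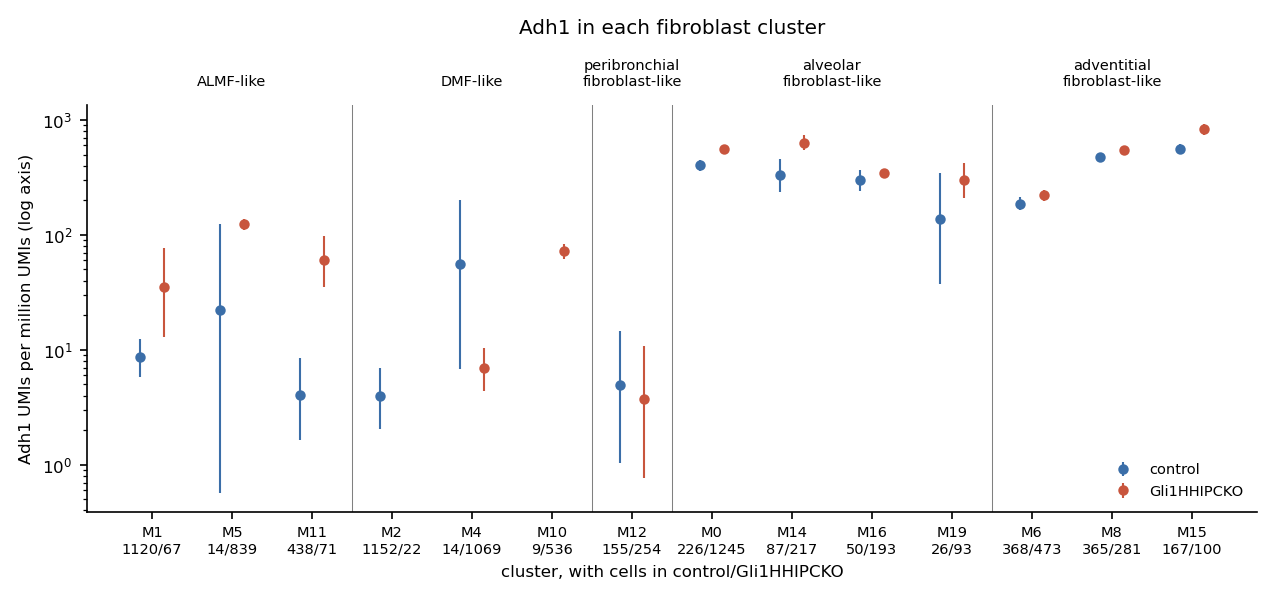
*Adh1* level (CPM, log axis) in each fibroblast cluster with exact 95% Poisson intervals, control in blue and *Gli1 HHIPCKO* in red, drawn where a library has at least 10 cells and 1 UMI; numbers under each cluster are its cells in the mice. *Gli1 HHIPCKO* cells of M5 (124 CPM) and M10 (71.9 CPM) stand well above those of M4 (6.92 CPM).

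**Figure D3:**
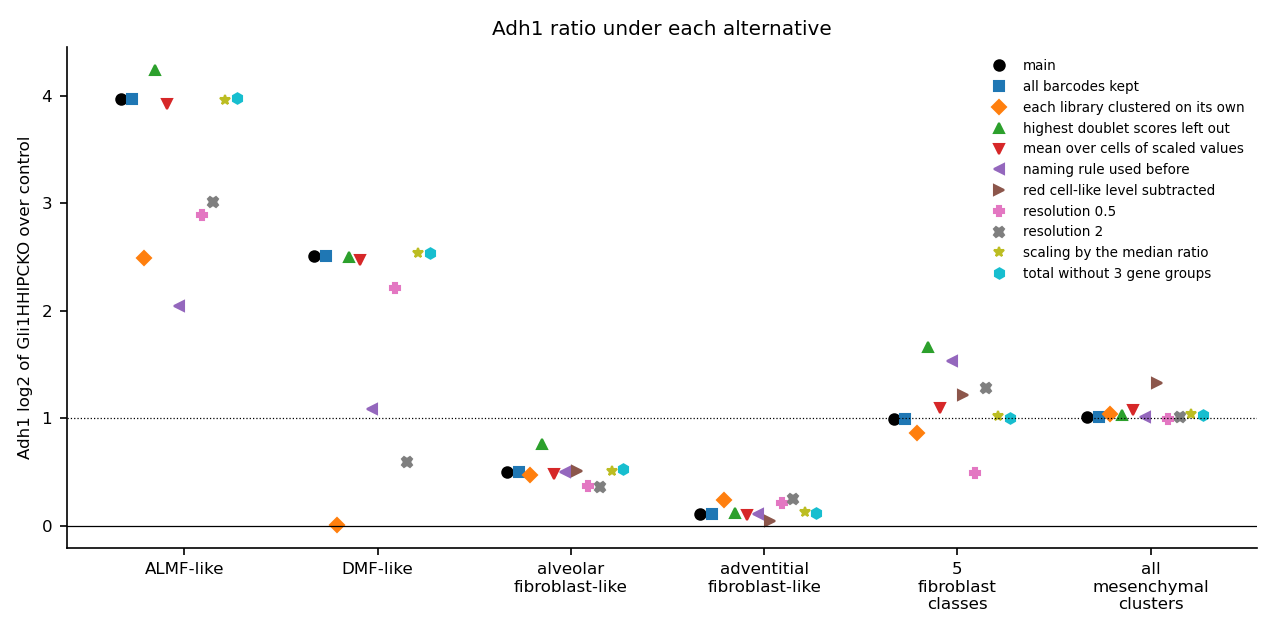
Log2 ratio of *Adh1*, *Gli1 HHIPCKO* over control, in the main analysis and in each alternative, for fibroblast classes and pools; dotted lines mark 2-fold. ALMF-like cells run from 2.04 to 4.24, and DMF-like cells reach down to 0.01. The ALMF-like ratio chose the gene, so nothing is read from its staying past 2-fold.

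At least 1 *Adh1* UMI was found in 1.97% (1.34 to 2.79) of ALMF-like cells in control and 20.2% (17.7 to 22.8) in *Gli1 HHIPCKO*, with median depths of 3176.5 and 3023 UMIs. Thinning every cell to 2000 UMIs gave 1.20% and 15.1%, without the 153 and 120 cells below that depth. The DMF-like shares were 1.02% and 6.21% at median depths of 2526 and 3247 UMIs, and 0.996% and 4.17% once thinned, with 271 and 163 cells left out. Red cell-like cells had 4.07% (1.97 to 7.35) and 11.1% (7.36 to 15.8), or 2.16% and 5.94% thinned, with 14 and 16 left out. The DMF-like shares are below the red cell-like ones in both mice, and nothing is read from the ALMF-like shares, which hold the same UMIs that chose the gene. Haemoglobin made up 58.5% of red cell-like UMIs in control and 45.5% in *Gli1 HHIPCKO*, which lowers their other levels unequally. With haemoglobin out of the total, their *Adh1* level was 50.7 CPM (33.9 to 72.7) and 71.0 CPM (53.8 to 92.0). On the full total it was 21.0 CPM (14.1 to 30.2) and 38.7 CPM (29.3 to 50.2). The *Gli1 HHIPCKO* DMF-like level of 33.0 CPM (28.4 to 38.1) overlaps the latter and lies above the 2.70 CPM (1.97 to 3.61) of AT2-like, 5.33 CPM (2.14 to 11.0) of pericyte-like and 3.70 CPM (0.763 to 10.8) of peribronchial fibroblast-like cells of the same library. It lies below mesothelial-like (67.9 CPM), immune-like (63.0 CPM), ALMF-like, alveolar and adventitial fibroblast-like cells. It overlaps endothelial-like (53.8 CPM), vascular smooth muscle-like (29.5 CPM), ciliated-like (21.5 CPM) and Schwann-like cells (15.1 CPM). Alveolar fibroblast-like shares were 59.9% and 74.9%, or 48.1% and 62.7% thinned with 106 and 326 left out. Adventitial fibroblast-like shares were 63.1% and 61.4%, or 48.7% and 49.2% thinned with 148 and 193 left out.

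Alveolar fibroblast markers were higher along with *Adh1* in some classes and not in others. All 12 of 12 genes of that list had UMIs in ALMF-like cells of both mice, and their sum was 115 CPM in control, led by *Limch1*, and 510 CPM in *Gli1 HHIPCKO*, led by *Npnt*. In DMF-like cells 12 of 12 had UMIs and their sum was 144 and 307 CPM, led by *Limch1* in both. In red cell-like cells 12 of 12 had UMIs and the sum was 368 and 1083 CPM, led by *Npnt*. None of the 12 was at 0 in these classes. In alveolar fibroblast-like cells themselves the sum was 14067 and 14608 CPM, about equal, led by *Npnt*. In cluster M11 it was 127 CPM, with 12 of 12 and led by *Limch1*, and 107 CPM, with 8 of 12, led by *Col13a1* and with *Scube2*, *Itga8*, *Wnt2* and *Slc7a10* at 0, so there the markers were not higher in *Gli1 HHIPCKO*. In M1 the sum was 106 CPM, with 12 of 12 and led by *Tcf21*, and 154 CPM, with 9 of 12, led by *Limch1* and with *Scube2*, *Slc7a10* and *Ces1d* at 0, and in the *Gli1 HHIPCKO* cells of M5 it was 577 CPM, with 12 of 12 and led by *Npnt*. Per 1000 UMIs of these markers, *Adh1* had 63.2 and 222 UMIs in ALMF-like cells and 40.2 and 107 in DMF-like cells. The same measure was 26.1 and 35.6 in alveolar fibroblast-like cells, 57.2 and 35.7 in red cell-like cells, and 100 and 130 in adventitial fibroblast-like cells, which express *Adh1* themselves. The classes thus differ in this measure, and since the ALMF-like value chose the gene nothing is read from it. The part of these markers in the clustering was not tested.

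Elsewhere *Adh1* passed 2-fold at low levels. It had 35 and 67 UMIs in mesothelial-like cells (31.5 and 67.9 CPM, log2 1.11), 16 and 45 UMIs in AT2-like cells (1.09 and 2.70 CPM, log2 1.31) and 61 and 47 UMIs in immune-like cells (30.2 and 63.0 CPM, log2 1.06). Each was higher in *Gli1 HHIPCKO*. The mesothelial-like ratio was 0.22 and the immune-like ratio -0.50 with the highest doublet scores left out, and the AT2-like ratio was 0.86 by the mean over cells, so each call ended in an alternative. All 12 alveolar fibroblast markers had UMIs there too, none at 0. Their sums were 1009 and 2228 CPM in mesothelial-like cells, led by *Npnt*, 411 and 535 CPM in AT2-like cells, led by *Ces1d*, and 418 and 1345 CPM in immune-like cells, led by *Npnt*. Per 1000 marker UMIs, mesothelial-like cells had 31.2 and 30.5 *Adh1* UMIs, so there *Adh1* and the markers kept 1 ratio, while AT2-like cells had 2.66 and 5.04 and immune-like cells 72.2 and 46.8. Vascular smooth muscle-like cells had 35 UMIs in each mouse, 29.3 and 29.5 CPM, and peribronchial fibroblast-like cells had 3 in each.

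*Adh7* (ENSMUSG00000055301; chromosome 3, 138217760 to 138233382) encodes the class IV enzyme, an efficient retinol dehydrogenase, and lies 27608 bases from *Adh1*. It had 162 UMIs in all of the control library, 80.2% of them in adventitial fibroblast-like cells, and 105 in *Gli1 HHIPCKO*, 81.9% of them there. The levels there were 37.7 CPM (31.5 to 44.7) and 27.9 CPM (22.3 to 34.4), log2 -0.43 (-0.84 to -0.03), with no call. No other class had more than 6 UMIs in either library. Most of it came from cluster M15, led by *C1qtnf3*, *Wif1* and *Bmp7*, where it was at 135 CPM (109 to 165) in control and 160 CPM (123 to 205) in *Gli1 HHIPCKO*. The same cluster had the highest *Adh1* among adventitial clusters, 559 CPM (506 to 618) and 831 CPM (744 to 926). Over the 5 fibroblast classes *Adh7* was called lower, 9.82 and 4.81 CPM, log2 -1.03 (-1.43 to -0.64). Adventitial fibroblast-like cells made up 25.1% of that pool's UMIs in control and 16.1% in *Gli1 HHIPCKO*. Control class levels at the *Gli1 HHIPCKO* composition would give 6.30 CPM, and *Gli1 HHIPCKO* class levels at the control composition 7.12 CPM. Neither is 2-fold below the control level of 9.82 CPM. Some classes are made of different clusters in the mice, and what lies behind the pooled call was not tested. That call held in 5 of 10 alternatives, and the ratio of 0.07 after subtracting the red cell-like level rests on 3 red cell-like UMIs in control and 0 in *Gli1 HHIPCKO*.

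*Dhrs3* (ENSMUSG00000066026; chromosome 4, 144892827 to 144928209) encodes the retinal reductase that works against the dehydrogenases. Ciliated-like cells had 123 CPM (104 to 145) in control and 138 CPM (111 to 170) in *Gli1 HHIPCKO*. AT2-like cells had 101 CPM (96.4 to 107) and 101 CPM (96.2 to 106). These epithelial classes overlapped each other in control, and AT2-like cells held 63.4% and 59.9% of the gene's UMIs. In *Gli1 HHIPCKO* ciliated-like cells stood above AT2-like cells. The AT2-like log2 ratio of -0.01 (-0.11 to 0.09) shows like levels in the mice. Among fibroblasts the alveolar class had most, 36.3 and 33.4 CPM, and ALMF-like cells had least, 2.29 and 1.63 CPM from 12 and 5 UMIs.

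*Aldh1a1* (ENSMUSG00000053279; chromosome 19, 20492715 to 20643465) encodes a retinal dehydrogenase that makes retinoic acid. Ciliated-like cells came first, with 522 CPM (480 to 566) in control and 670 CPM (609 to 736) in *Gli1 HHIPCKO*. Alveolar fibroblast-like cells came next, with 191 CPM (168 to 216) and 279 CPM (266 to 292), clear of their neighbours in both libraries. Adventitial fibroblast-like cells had 78.5 CPM (69.4 to 88.4) and 152 CPM (139 to 166), and mesothelial-like cells overlapped them with 76.4 CPM (61.0 to 94.5) and 170 CPM (146 to 198). AT2-like cells were lowest of the 14 classes in both mice, at 2.25 and 1.68 CPM.

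Over the 5 fibroblast classes *Aldh1a1* rose from 52.0 CPM (48.3 to 56.0) to 153 CPM (148 to 159), log2 1.56 (1.44 to 1.68), and it was past 2-fold in all 10 alternatives, from 1.23 to 3.14. Alveolar fibroblast-like cells made up 9.63% of that pool's UMIs in control and 34.1% in *Gli1 HHIPCKO*, and control class levels at the *Gli1 HHIPCKO* composition would give 91.0 CPM. *Gli1 HHIPCKO* class levels at the control composition would give 107 CPM. Both values lie between the pooled levels of the mice, and they depend on the order of the calculation. ALMF-like and DMF-like cells came from different clusters in the mice, and the part of this in the class levels was not tested. *Aldh1a1* passed in ALMF-like cells, with 66 and 190 UMIs, 12.6 CPM (9.74 to 16.0) and 61.9 CPM (53.4 to 71.4), log2 2.30 (1.89 to 2.73), and did so in all 9 alternatives, the lowest being 1.19 under the first naming rule. In mesothelial-like cells it had 85 and 168 UMIs and a log2 ratio of 1.16 (0.77 to 1.55), and it passed in all 9 alternatives there. Per 1000 alveolar fibroblast marker UMIs, mesothelial-like cells had 75.7 and 76.4 *Aldh1a1* UMIs, so it and the markers were higher in like proportion. DMF-like cells had 98 and 412 UMIs, 31.4 CPM (25.5 to 38.3) and 73.0 CPM (66.1 to 80.4), log2 1.22 (0.90 to 1.55), and the call ended at resolution 0.5, with 0.24. In contrast to *Adh1*, it was not confined to M10: M4 and M10 had 79.7 and 64.4 CPM in *Gli1 HHIPCKO*, both above the 29.9 CPM of control cells in M2. The few control cells of M4 and M10 were not lower, with 112 CPM (30.5 to 287) from 4 UMIs and 75.2 CPM (15.5 to 220) from 3 UMIs. Within each ALMF-like cluster *Aldh1a1* overlapped between the mice, with 12.9 CPM (9.43 to 17.3) and 29.6 CPM (9.60 to 69.0) in M1 and 11.6 CPM (7.12 to 18.0) and 17.8 CPM (5.79 to 41.6) in M11. In M5 it had 22.3 CPM (0.565 to 124) from 1 UMI in 14 control cells and 68.7 CPM (59.1 to 79.5) in *Gli1 HHIPCKO*. Adventitial and alveolar fibroblast-like cells gave log2 ratios of 0.95 (0.74 to 1.18) and 0.54 (0.35 to 0.74), short of the call. The adventitial one was past 2-fold in 4 of 10 alternatives. Peribronchial fibroblast-like cells, all of cluster M12, had 44.8 and 45.6 CPM, log2 0.03, which became -1.94 at resolution 0.5. Their markers were not alike in the mice. Peribronchial fibroblast and DMF markers summed to 19799 and 4337 CPM in control, and to 6714 and 6722 CPM in *Gli1 HHIPCKO*. The part of this in the ratio was not tested.

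*Aldh1a1* was also higher in *Gli1 HHIPCKO* in red cell-like and immune-like cells. Red cell-like cells had 26 UMIs and 18.9 CPM in control and 76 UMIs and 51.6 CPM in *Gli1 HHIPCKO*, log2 1.45 (0.79 to 2.15), past 2-fold in 8 of 9 alternatives. Part of that ratio comes from the unequal haemoglobin share, and without haemoglobin the levels were 45.4 CPM (29.7 to 66.5) and 94.7 CPM (74.6 to 119). Immune-like cells had 35 and 29 UMIs, 17.3 and 38.8 CPM, log2 1.17 (0.40 to 1.92), past 2-fold in 7 of 9. The share of ALMF-like cells with an *Aldh1a1* UMI was 4.07% and 15.9%, or 2.54% and 10.9% thinned, beside 9.35% and 19.6% in red cell-like cells, or 1.29% and 10.5% thinned. The ALMF-like shares are below the red cell-like ones before thinning and not below them after it, though haemoglobin takes up much of a thinned red cell-like cell. Per 1000 alveolar fibroblast marker UMIs, *Aldh1a1* had 110 and 121 UMIs in ALMF-like cells and 219 and 237 in DMF-like cells, so it and the markers were higher in like proportion there. The same measure was 13.6 and 19.1 in alveolar fibroblast-like cells and 51.3 and 47.6 in red cell-like cells, both below the ALMF-like and DMF-like values. The part of free RNA in the *Aldh1a1* ratios was not tested.

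*Aldh1a2* (ENSMUSG00000013584; chromosome 9, 71215789 to 71296243) is the main retinoic acid-making enzyme of mesothelium and embryo. Mesothelial-like cells had 824 CPM (772 to 879) in control and 665 CPM (615 to 718) in *Gli1 HHIPCKO*, log2 -0.31 (-0.46 to -0.16), with 77.6% and 64.1% of its UMIs. That is no call, and no other class came near in either mouse. Vascular smooth muscle-like cells at 36.9 CPM (26.8 to 49.5) and 40.5 CPM (29.8 to 53.7) and adventitial fibroblast-like cells at 26.1 CPM (21.0 to 32.0) and 50.6 CPM (43.0 to 59.2) overlapped each other in both libraries. The adventitial log2 ratio of 0.96 (0.57 to 1.35) fell short of 2-fold. Among adventitial clusters it was highest in M6, led by *Serpinf1*, *Dcn* and *Pi16*, at 63.3 and 93.8 CPM, where *Adh1* was lowest at 187 and 221 CPM.

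*Aldh1a3* (ENSMUSG00000015134; chromosome 7, 66390890 to 66427517), the third retinal dehydrogenase of the family, was sparse, with 76 UMIs in the control library and 138 in *Gli1 HHIPCKO*. Adventitial fibroblast-like cells had 10.1 CPM (7.06 to 14.1) and 18.8 CPM (14.3 to 24.3), log2 0.89 (0.26 to 1.54), without a call. Schwann-like cells, which ensheath nerves, had 6 UMIs in each mouse, in 6 and 5 of 24 cells, and this was the highest level of the 14 classes at 98.5 and 90.3 CPM.

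*Crabp1* (ENSMUSG00000032291; chromosome 9, 54764748 to 54773110) encodes a cytoplasmic retinoic acid-binding protein. Alveolar fibroblast-like cells had 303 CPM (274 to 334) in control and 205 CPM (195 to 217) in *Gli1 HHIPCKO*, and they held 71.0% and 76.8% of its UMIs. The level was lower in *Gli1 HHIPCKO*, log2 -0.56 (-0.72 to -0.40), without a call, and alternatives ran from -1.01 with the highest doublet scores left out, past 2-fold lower, to 0.33 with each library clustered on its own. The share of these cells with a UMI was 39.8% and 31.6%, or 32.2% and 24.4% thinned, beside 0.813% and 2.55% in red cell-like cells. Pooled over the 5 fibroblast classes the direction was opposite: *Crabp1* was called higher, from 33.5 to 73.7 CPM, log2 1.14 (0.99 to 1.29), past 2-fold in 8 of 10 alternatives. The pool holds more alveolar fibroblast-like cells in *Gli1 HHIPCKO*, and the level inside that class was the lower one there. In control every other class had less than 9 CPM. In *Gli1 HHIPCKO* endothelial-like cells came second at 97.8 CPM, but from 20 UMIs in 3 cells.

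*Crabp2* (ENSMUSG00000004885; chromosome 3, 87948666 to 87953376), the relative that delivers retinoic acid to its nuclear receptors, had 18 UMIs in the control library and 28 in *Gli1 HHIPCKO*. No class had more than 10, so no difference was detectable at this depth.

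**Figure D4:**
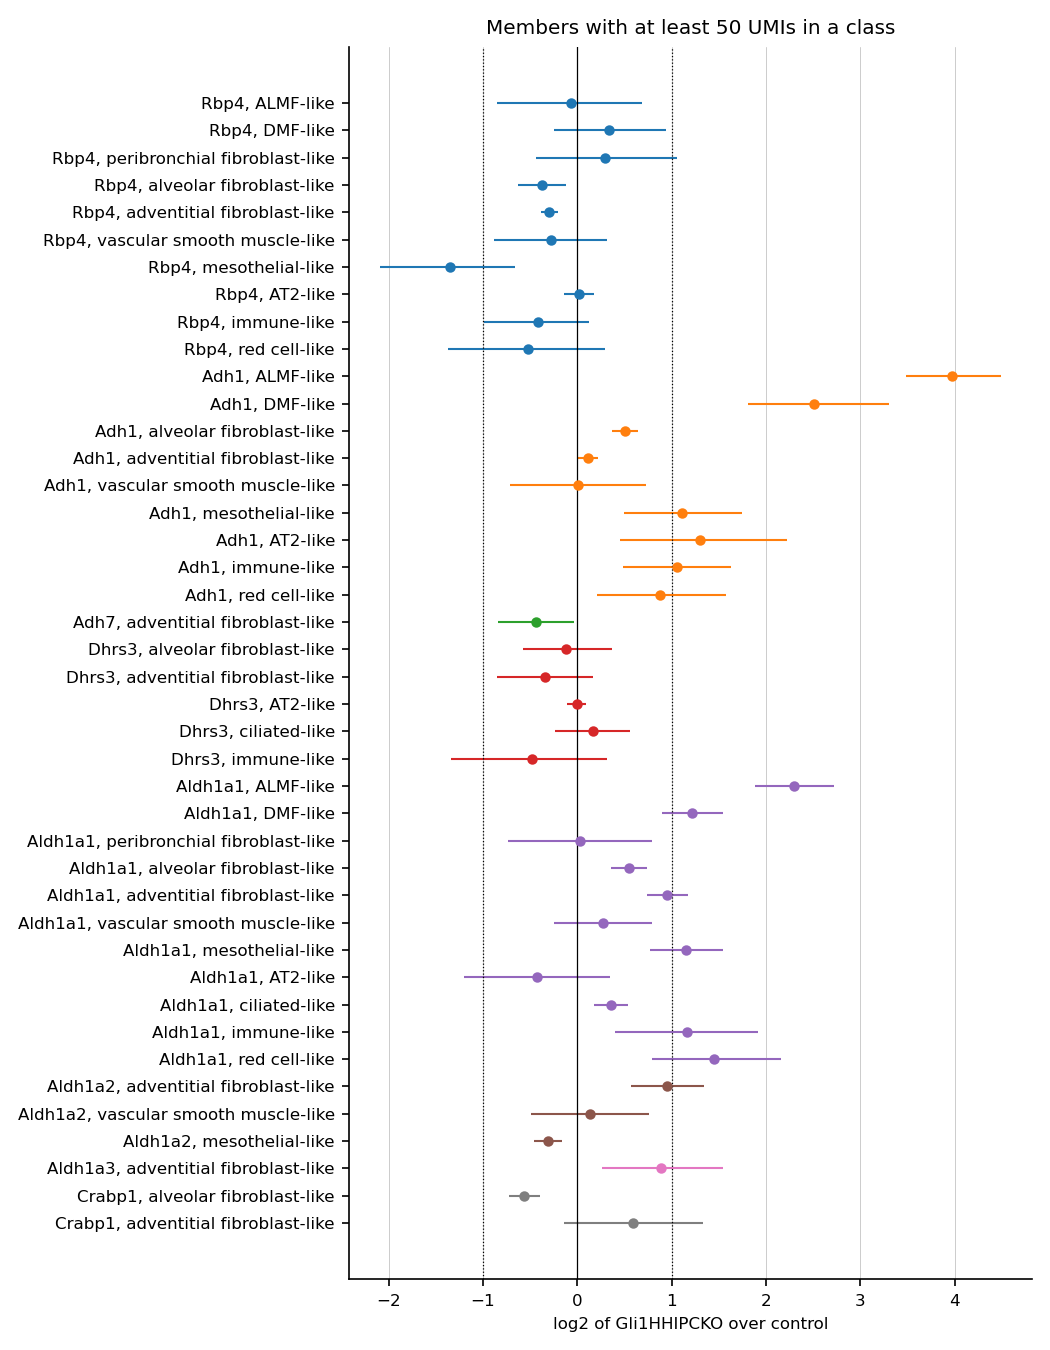
Log2 ratio of *Gli1 HHIPCKO* over control with its 95% counting interval for each member and class with at least 50 UMIs in both libraries together; dotted lines mark 2-fold. *Adh1* in ALMF-like (3.97) and DMF-like cells (2.51) and *Aldh1a1* in ALMF-like cells (2.30) lie farthest to the right, and *Rbp4* in mesothelial-like cells (-1.35) farthest to the left.

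The counts of called members are read beside all genes of the same class with at least 50 UMIs. These percentages take genes called in either direction, except where a side is named. ALMF-like cells had 2 of 3 measured members higher and none lower, where 4.39% of all genes were called, and since this contrast chose *Adh1* nothing is read from that count. DMF-like cells had 2 of 3 higher beside 5.09% of all genes called and 2.85% higher. Mesothelial-like cells had 2 of 4 higher and 1 lower beside 3.56% called, 2.19% higher and 1.37% lower. Immune-like cells had 2 of 4 higher beside 3.94% called and 1.69% higher. AT2-like cells had 1 of 4 higher beside 2.63% called and 1.54% higher. Red cell-like cells had 1 of 3 higher beside 15.6%, and their median log2 ratio over all genes was 0.55. No measured member was called in alveolar (0 of 5, beside 4.16%), adventitial (0 of 8, beside 3.30%), peribronchial fibroblast-like (0 of 2, beside 5.31%), vascular smooth muscle-like (0 of 4, beside 2.96%) or ciliated-like cells (0 of 2, beside 2.27%). Pericyte-like, endothelial-like and Schwann-like cells had 0 members with 50 UMIs. Over the 5 fibroblast classes 2 of 8 were higher and 1 lower beside 5.14%, and over all mesenchymal clusters 3 of 8 were higher and 1 lower beside 4.67%. *Adh1* is among those 3, at the edge of the call, and both pools hold the ALMF-like cells that chose it. Nothing is read from its part in that count.

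The rest of the pathway was followed with a list of 55 genes that includes the members. Over single classes, 18 of 238 measured pairs of gene and class were at least 2-fold higher (7.56%) and 6 at least 2-fold lower (2.52%), beside 2.70% and 1.55% over all genes. The members gave 10 of the 18, the pair that chose *Adh1* among them. Without the members 8 of 196 pairs were higher (4.08%) and 5 lower (2.55%), and without red cell-like cells as well 5 of 188 were higher (2.66%), beside 2.14% over all genes in those classes. In ALMF-like cells 3 of 24 measured genes were higher and none lower, where 4.39% of all genes were called, with a median log2 ratio of 0.12 beside 0.01 over all genes. In DMF-like cells 2 of 24 were higher and 1 lower beside 5.09%, median -0.05 beside -0.02. In alveolar fibroblast-like cells 2 of 26 were lower beside 4.16%, median -0.08 beside -0.01, and in adventitial fibroblast-like cells 1 of 28 was higher beside 3.30%, median -0.08 beside -0.01. In each of these 4 classes the list median was within 0.12 of the all-gene median. The percentages given for these 4 classes take all genes called in either direction. In alveolar fibroblast-like cells 1.86% of all genes were lower, and in adventitial fibroblast-like cells 1.81% were higher.

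By role, the uptake protein gene *Stra6* had 4 UMIs in control and 3 in *Gli1 HHIPCKO* over the 5 fibroblast classes, at or near the floor of 3 counts, so no fold is given. *Lrat*, which esterifies retinol for storage, was at 35.5 and 24.8 CPM in alveolar fibroblast-like cells, and *Plin2*, a lipid droplet coat protein, at 226 and 207 CPM there. Neither storage gene was called. *Rdh10*, which makes retinal, was at 13.7 and 16.9 CPM in ALMF-like cells, and *Rdh11*, a retinal reductase, fell from 12.1 to 5.98 CPM in alveolar fibroblast-like cells, log2 -1.02, from 16 and 39 UMIs.

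Breakdown enzymes were scarce. *Cyp26b1* had 12 and 21 UMIs over the 5 fibroblast classes, and *Cyp26a1* had 0 in both mice there. Of the receptors, *Rara* was at 57.3 and 57.5 CPM over the 5 fibroblast classes and *Rarg* at 43.3 and 29.4 CPM, neither called. *Rxrg* fell from 14.4 to 6.44 CPM in alveolar fibroblast-like cells, log2 -1.16, and *Rarb* and *Rxra* fell in ciliated-like cells, from 51.4 to 18.4 CPM and from 34.5 to 16.9 CPM. *Rarb* is itself induced by retinoic acid in many cells.

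Among 9 genes known to be induced by retinoic acid, 1 of 6 measured was higher in ALMF-like cells, 1 of 6 lower in DMF-like cells, 1 of 6 higher in adventitial and 0 of 6 called in alveolar fibroblast-like cells. Over all genes 2.73% were higher in ALMF-like, 2.24% lower in DMF-like and 1.81% higher in adventitial fibroblast-like cells, and 4.16% were called in alveolar ones. Each count above 0 is a single gene, so nothing is read from them about these genes as a group. *Tgm2*, which encodes transglutaminase 2, rose in ALMF-like cells from 17.9 to 88.0 CPM, log2 2.30 (1.95 to 2.65). Over the 5 fibroblast classes *Tgm2* rose from 101 to 250 CPM, log2 1.31 (1.22 to 1.40). Of these classes taken singly, only ALMF-like cells gave a call for it. Alveolar fibroblast-like cells made up 9.63% of the pool's UMIs in control and 34.1% in *Gli1 HHIPCKO*, and the part of this in the pooled *Tgm2* ratio was not tested. *Tgm2* was also called higher in ciliated-like cells and in red cell-like cells, the latter from 21.8 to 61.8 CPM. *Nrip1*, a corepressor of nuclear receptors, rose in adventitial fibroblast-like cells from 59.4 to 119 CPM, log2 1.01. *Meis2*, a homeobox gene, fell in DMF-like cells from 17.0 to 4.78 CPM, log2 -1.83. *Hoxa5* was at 53.0 and 45.3 CPM over the 5 fibroblast classes, without a call.

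Within classes, cells with an *Adh1* UMI were compared with cells without one after thinning. In adventitial fibroblast-like cells *Adh7* was found in 8.74% (6.06 to 12.1) of *Adh1* cells and 3.37% (1.80 to 5.69) of others in control, and in 6.77% (4.29 to 10.1) and 2.98% (1.44 to 5.40) in *Gli1 HHIPCKO*. *Aldh1a2* went the other way, with 2.73% (1.32 to 4.97) of *Adh1* cells and 8.03% (5.52 to 11.2) of others in control and 7.38% (4.79 to 10.8) and 11.0% (7.87 to 14.9) in *Gli1 HHIPCKO*. For both genes the intervals are apart in control and overlap in *Gli1 HHIPCKO*, and cells of 1 mouse are not replicates. In alveolar fibroblast-like cells *Aldh1a1* did not separate, with 30.9% and 31.3% in control and 40.2% and 41.6% in *Gli1 HHIPCKO*. In *Gli1 HHIPCKO* ALMF-like cells it was found in 14.7% (9.11 to 22.0) of 129 *Adh1* cells and 10.2% (8.07 to 12.6) of 728 others, which overlap.

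Over 26 profiles, 13 classes in each library, the genes most like *Adh1* by Pearson's r of log2(CPM + 1), among 12472 genes, were *Cmklr1* (0.96), *Dpep1* (0.96), *Smim41* (0.96), *Col13a1* (0.94), *Fn1* (0.93), *Abca8a* (0.93), *Inmt* (0.91), *Slc27a3* (0.91), *Tmem119* (0.91) and *Frem1* (0.91). *Col13a1* and *Inmt* are on the alveolar fibroblast marker list and *Dpep1* on the adventitial list, and profiles of 1 library share that library's depth and free RNA. Most like *Rbp4* was *Slc1a3* (0.80), most like *Adh7* was *Itgbl1* (0.89), most like *Dhrs3* was *Rab15* (0.90), and most like *Aldh1a1* was *Slc1a4* (0.87). For *Aldh1a2* it was *C4b* (0.93), for *Aldh1a3* *Agtr2* (0.71) and for *Crabp1* *Wnt2* (0.89). Among the members, *Adh1* and *Crabp1* were the pair most alike (0.76), then *Rbp4* and *Adh7* (0.70).

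*Adh1* and *Adh7* share 69.2% of bases over their aligned coding sequences, and *Aldh1a1* shares 68.0% with *Aldh1a2* and 67.3% with *Aldh1a3*. *Crabp1* and *Crabp2* share 70.8%. The closest relative of a member in the list was *Aldh1a7*, 91.7% like *Aldh1a1* and 49487 bases from it on chromosome 19. Of the 2493 stretches of 50 bases in *Aldh1a1* transcripts, 151 (6.06%) also occur in *Aldh1a7*. The stretches cover whole transcripts, and how many reads fall on the shared ones was not tested. *Aldh1a7* had its own pattern, with 49.5 and 41.5 CPM in AT2-like cells, where *Aldh1a1* was lowest.

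Upstream sequences from RefSeq (GRCm38.p6) were at hand for 7 of the 9 members, and not for *Aldh1a3* and *Crabp2*. The 250 bases before each start were searched on both strands for 4 spellings of the half-site read by retinoic acid receptors. The letters AGGTCA occur in 14.0% of 32851 mouse promoters, the letters AGTTCA in 11.8%, the letters GGGTCA in 11.6% and the letters GGTTCA in 8.85%, and at least 1 of the 4 in 38.6%. *Adh1* had none, *Adh7* had AGTTCA, and a start site of *Rbp4* and one of *Aldh1a1* had GGGTCA, each on the strand opposite to the gene. None was found for *Dhrs3*, *Aldh1a2* or *Crabp1*. The sequences of *Adh1* (chr3:138277335-138277584, plus strand), whose RefSeq start lies inside the annotated span of the gene, and of the second *Aldh1a1* start (chr19:20601718-20601967, plus strand) are shown because these genes carried the higher values. Capitals mark the match, TGACCC on this strand. It is a match of letters and says nothing of binding.
Adh1: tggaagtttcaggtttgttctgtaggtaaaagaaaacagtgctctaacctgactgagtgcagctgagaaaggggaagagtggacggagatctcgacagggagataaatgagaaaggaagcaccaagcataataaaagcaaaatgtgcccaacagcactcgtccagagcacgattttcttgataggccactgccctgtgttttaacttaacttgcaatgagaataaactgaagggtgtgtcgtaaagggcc
Aldh1a1: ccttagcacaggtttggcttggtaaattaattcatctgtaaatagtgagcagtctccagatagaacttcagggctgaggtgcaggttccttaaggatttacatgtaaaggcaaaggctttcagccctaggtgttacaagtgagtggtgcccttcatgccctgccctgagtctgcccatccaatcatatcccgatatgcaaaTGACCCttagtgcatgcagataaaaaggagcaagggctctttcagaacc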

How the data were processed

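The authors' deposited counts, raw UMIs per gene and cell aligned to mm10, were used. The file headers and the paper name CellRanger 6.1.0, the submitters' processing notes name 3.1.0. The sample labels name a 3′ v2 kit, while the series design and the paper name a 5′ v2 kit. Members and gene lists were chosen with earlier results of these data known.

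Barcodes were kept if they had 200 to 6000 genes and no more than 10% of UMIs from mitochondrial genes, 10917 in control and 12115 in *Gli1 HHIPCKO*. Both libraries were scaled (10000 UMIs a cell), log-transformed and clustered jointly with no batch integration, using 2000 variable genes, 30 components, 20 neighbours and Leiden clustering at resolution 1, and mesenchymal clusters were clustered again. The retinoid list, *Hhip* and sex genes, 62 in all, were held out of clustering. Python 3.11.15, numpy 2.4.6, scipy 1.17.1, scikit-learn 1.9.0, igraph 0.11.9, leidenalg 0.10.2 and biopython 1.88 were used. Positions are from GENCODE vM21 on GRCm38.

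Clusters were named from marker lists of 18 classes. A name needed a score of at least 0.4, at least 3 markers each detected in 10% of cells, no other lineage at 0.3, no second class at 0.8 of the best score, no other class with more markers among the 10 leading genes, and 40 cells. Clusters with a median depth under 1/3 of the library's and no own marker among the leading genes, and clusters of another lineage among the mesenchymal ones, were left unnamed. These thresholds, the minimum of cells included, form the second of 2 rules and were set after the clusters were seen. Of 42 clusters 14 stayed unnamed, with 13.1% of control and 14.4% of *Gli1 HHIPCKO* cells. Clusters M10 and M11 are named although immediate early genes lead them. M8 is named adventitial although alveolar fibroblast markers came near in control. M12 is named peribronchial although DMF markers were as high in *Gli1 HHIPCKO*. Doublets were not removed in the main analysis. Levels, shares, ratios and their exact intervals were computed from summed UMIs, and genes with fewer than 50 UMIs in a comparison were given no call. The named genes are the 9 members, the list genes past 2-fold or standing for a role, and the genes most like each member. The alternatives tried were other resolutions, separate clustering, doublet removal, other scalings, call thresholds and filters, subtraction of the red cell-like level, thinning, and the first naming rule, which was chosen as an alternative after seeing the data. The code was tested on simulated data.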

Additional observations from a re-analysis of the deposited data

How the results depend on the processing

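No paired analysis was possible because each condition has 1 mouse. Ratios of *Adh1* (log2) that left their counting interval are given by setting, and the cause was not tested. At resolution 0.5 they were 2.89 in ALMF-like cells (3.97 in the main analysis) and 0.49 over the 5 fibroblast classes (0.99). At resolution 2 they were 3.01 in ALMF-like, 0.59 in DMF-like (2.51), 0.36 in alveolar (0.50) and 0.25 in adventitial fibroblast-like cells (0.11), and 1.28 over the 5 classes. With each library clustered on its own they were 2.49, 0.01, 0.24 (adventitial) and 0.86 (5 classes). With the highest doublet scores left out, 953 control cells (8.73%) and 1174 *Gli1 HHIPCKO* cells (9.69%), they were 0.76 in alveolar fibroblast-like cells, 0.22 in mesothelial-like cells (1.11) and 1.66 over the 5 classes. The mean over cells gave 1.10 over the 5 classes. Subtracting the red cell-like level gave 1.22 over the 5 classes and 1.33 over all mesenchymal clusters (1.01). The first naming rule, an alternative chosen after seeing the data, gave 2.04 in ALMF-like cells, 1.09 in DMF-like cells, 2.38 in immune-like cells (1.06) and 1.53 over the 5 classes.

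3 called ratios changed sign. *Adh1* in immune-like cells went from 1.06 to -0.50 without the highest doublet scores, and the cause was not tested. *Adh7* did so after subtraction of the red cell-like level, from -1.03 to 0.07 over the 5 classes and from -1.01 to 0.54 over all mesenchymal clusters, which rests on 3 red cell-like UMIs in control and 0 in *Gli1 HHIPCKO*. The 10 higher pairs of member and class became 6 at resolution 0.5 and 17 when 20 UMIs sufficed. The 1 lower pair became 2 at resolution 2, with libraries clustered alone and with scaling by the median ratio, 3 without the highest doublet scores and 4 from 20 UMIs. For the whole list, 18 higher pairs became 37 past 1.5-fold and 30 from 20 UMIs, and 6 lower pairs became 18 and 14. Keeping all barcodes, and leaving haemoglobin, mitochondrial and ribosomal protein genes out of the total, moved 0 of 58 ratios each. Some classes gave no value: AT2-like, ciliated-like and mesothelial-like cells lost their name at resolution 0.5, AT2-like, ciliated-like and Schwann-like cells with libraries clustered alone, and vascular smooth muscle-like cells under the first naming rule. Subtraction gave no *Adh1* ratio in ALMF-like and DMF-like cells, whose control level is at or below that of red cell-like cells. Depth limits *Crabp2* most, with at most 10 UMIs in any class.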
